A study of Mus musculus with 12 samples.

Results

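The 9 genes described here write, remove and read the methyl mark on DNA, and their RNA was measured in mouse splenic B cells at rest and after activation. They were the genes named Dnmt1, Dnmt3a, Dnmt3b, Tet1, Tet2, Tet3, Mbd1, Mbd2 and Mbd4 in the deposited transcript table, with the counts of all transcripts of a gene added together. They are 9 of 32699 gene names, and all 9 passed the filter on low counts that left 19125 genes for testing. All were tested in every comparison. The genes were taken by name, with earlier results of these data known.

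Purified B cells were labelled wild type (WT) or knockout (KO), and the series title names CHD4, the ATPase of the nucleosome remodelling and deacetylase complex, which holds either Mbd2 or its relative Mbd3. Cells were either unstimulated (0 hr) or cultured for 48 hr with lipopolysaccharide (LPS, a bacterial product that drives B cells to divide) at 10 µg/ml and interleukin 4 (IL-4, a T cell cytokine) at 25 ng/ml. The 4 groups of 3 libraries were WT 0 hr (replicates 1 to 3), KO 0 hr (replicates 4 to 6), WT 48 hr (replicates 7 to 9) and KO 48 hr (replicates 10 to 12). The deleting Cre, the deleted exons, the strain and the age of the mice are not given in the sources used here. Whether replicates came from separate mice or cultures is not stated, so the p-values reflect the spread among these 12 libraries alone, and that spread may be technical. In bulk samples such as these, fewer cells of a type and less RNA per cell cannot be told apart.

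DNA methyltransferases place a methyl group on cytosine, mostly where a guanine follows it (a CG site). Dnmt1 copies the pattern onto the new strand after replication and is guided there by Uhrf1, while Dnmt3a and Dnmt3b can methylate sites that carried no mark. The Tet dioxygenases oxidise methylcytosine, and the glycosylase Tdg excises the oxidised bases so that repair can restore cytosine. Mbd1 and Mbd2 bind methylated CG sites and recruit repressors, and Mbd4 is a glycosylase that binds near such sites and removes mismatched thymine or uracil. In B cells these enzymes act while resting cells enter rapid division and begin antibody class switching.

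Of the 9 genes, 7 (all but Mbd1 and Mbd2) had windows from 250 bases before to 50 bases after a transcription start in the RefSeq table (build GRCm38.p6), with 11 windows in all. The bases before the start are shown for a pair of methyltransferase genes that were higher after activation and a pair of dioxygenase genes that were lower, because CG sites are the substrate of all 4 enzymes. CG sites are in capitals and the remaining bases in lower case, 5′ to 3′ on the strand of the gene. The stretches are chr9:20952980-20953229 (minus strand) for Dnmt1, chr2:153649199-153649448 (plus strand) for Dnmt3b, chr3:133544391-133544640 (minus strand) for Tet2 and chr6:83441679-83441928 (minus strand) for Tet3.
Dnmt1: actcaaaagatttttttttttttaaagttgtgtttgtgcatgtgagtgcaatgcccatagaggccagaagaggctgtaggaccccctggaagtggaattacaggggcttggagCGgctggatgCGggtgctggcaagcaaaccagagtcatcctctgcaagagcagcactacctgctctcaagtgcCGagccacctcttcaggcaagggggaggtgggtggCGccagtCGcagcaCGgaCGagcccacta
Dnmt3b: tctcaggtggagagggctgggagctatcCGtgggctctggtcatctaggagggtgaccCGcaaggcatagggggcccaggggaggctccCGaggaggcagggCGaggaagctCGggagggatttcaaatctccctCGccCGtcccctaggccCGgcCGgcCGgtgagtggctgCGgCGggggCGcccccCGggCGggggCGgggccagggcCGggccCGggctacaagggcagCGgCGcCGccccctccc
Tet2: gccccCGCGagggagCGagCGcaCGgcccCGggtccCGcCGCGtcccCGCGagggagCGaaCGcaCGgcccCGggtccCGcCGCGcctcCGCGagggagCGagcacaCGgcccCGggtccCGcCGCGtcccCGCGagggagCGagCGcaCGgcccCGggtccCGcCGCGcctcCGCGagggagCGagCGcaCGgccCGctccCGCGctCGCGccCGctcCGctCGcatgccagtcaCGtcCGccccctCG
Tet3: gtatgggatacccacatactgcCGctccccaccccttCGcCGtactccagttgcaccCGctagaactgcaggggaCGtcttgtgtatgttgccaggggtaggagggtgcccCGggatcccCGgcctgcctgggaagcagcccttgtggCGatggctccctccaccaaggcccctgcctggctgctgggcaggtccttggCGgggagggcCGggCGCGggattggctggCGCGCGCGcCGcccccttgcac
These stretches held 7 CG sites for Dnmt1, 21 for Dnmt3b, 51 for Tet2 and 17 for Tet3. The full 300-base windows held 12, 30, 57 and 22 CG sites in the same order, against a median of 7 over all 32851 windows, and 99.8% of windows held fewer than that of Tet2.  Dnmt1 had a pair of other listed starts, with 2 CG sites in the window chr9:20959839-20960138 and 33 in the window chr9:20952574-20952873. That last window held 3 matches to TTTNNCGC, read on both strands, of which a pair overlapped each other. This motif is a form of the site bound by E2F factors, and it occurred in 5.17% of all windows. None of the other 10 windows of these genes held a match, which says only that these letters are not in those windows, and no binding or methylation was measured.

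The 12 libraries held between 39 M and 53.2 M estimated counts (median 51.1 M). Levels below are in CPM, here counts scaled to the library total times a factor for that library. The factors came from the main scaling (the trimmed mean of M values, TMM) and ran from 0.723 to 1.42. These levels therefore differ from CPM by library totals alone. The targeted gene Chd4 had 86.8 ± 16.5 CPM (SD, n = 3) in WT 0 hr libraries, against 87.8 ± 15.3 CPM in the KO ones, while the 48 hr levels were 107 ± 14.3 (WT) and 54.9 ± 18.2 CPM (KO). The edgeR log2 fold change of Chd4 between genotypes was 0.02 (adjusted p = 0.99) at 0 hr and -0.96 (adjusted p = 0.038) at 48 hr, so its RNA set the labels apart at 48 hr alone, and KO below means a library labelled KO. Unstimulated WT libraries had 259 ± 38.4 CPM of Xist and 26.0 ± 2.45 CPM of the Y-linked Ddx3y, and KO libraries 1.57 ± 0.0167 and 120 ± 24.9 CPM, so differences of sex make-up and of genotype cannot be told apart. KO 0 hr replicate 6 and KO 48 hr replicate 12 were singled out after seeing the data. Chd4 was at 100, 70.6 and 92.8 CPM in KO replicates 4 to 6, and at 51.3, 38.8 and 74.7 CPM in KO replicates 10 to 12. Among single libraries, leaving out replicate 6 gave the most genes called between genotypes at 0 hr (426). Leaving out replicate 12 gave the most at 48 hr (1080). Leaving out both raised the number of all genes called between genotypes from 212 to 674 at 0 hr and from 386 to 1351 at 48 hr, and results between genotypes are given with and without them where that changes a call. Summed markers of B cells ranged from 5290 to 9040 CPM over all 12 libraries, and none of those 6 markers was at 0 in every library. None of the 8 T cell markers was at 0 in every library either, and their sum ranged from 38.0 to 122 CPM.

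After 48 hr with LPS and IL-4, the 3 methyltransferase genes rose and the 3 dioxygenase genes and the repair glycosylase Mbd4 fell in both genotypes. The size of the rise was greatest for the maintenance enzyme Dnmt1, at 4.50-fold in WT and 4.69-fold in KO. Among the falls, that of Tet1 was 3.32-fold in WT and 2.55-fold in KO, from an already low level, and that of Tet3 was 2.14-fold and 2.61-fold. Readers Mbd1 and Mbd2 were not called. The count was thus 3 higher and 4 lower of 9 in each genotype, where 73.9% of all tested genes in WT (33.0% higher, 40.9% lower) and 70.7% in KO (33.0% higher, 37.7% lower) were called at an adjusted p below 0.05 (edgeR). Libraries of the 2 times did not overlap for 8 of 9 genes in WT and 7 of 9 in KO, against 79.8% and 72.5% of all tested genes. These counts are near the background, so most genes changed over time and the count of members called sets them apart from no other genes. The groups held no unstimulated cells cultured for 48 hr, so the stimulus and the time in culture cannot be told apart.

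**Figure D1:**
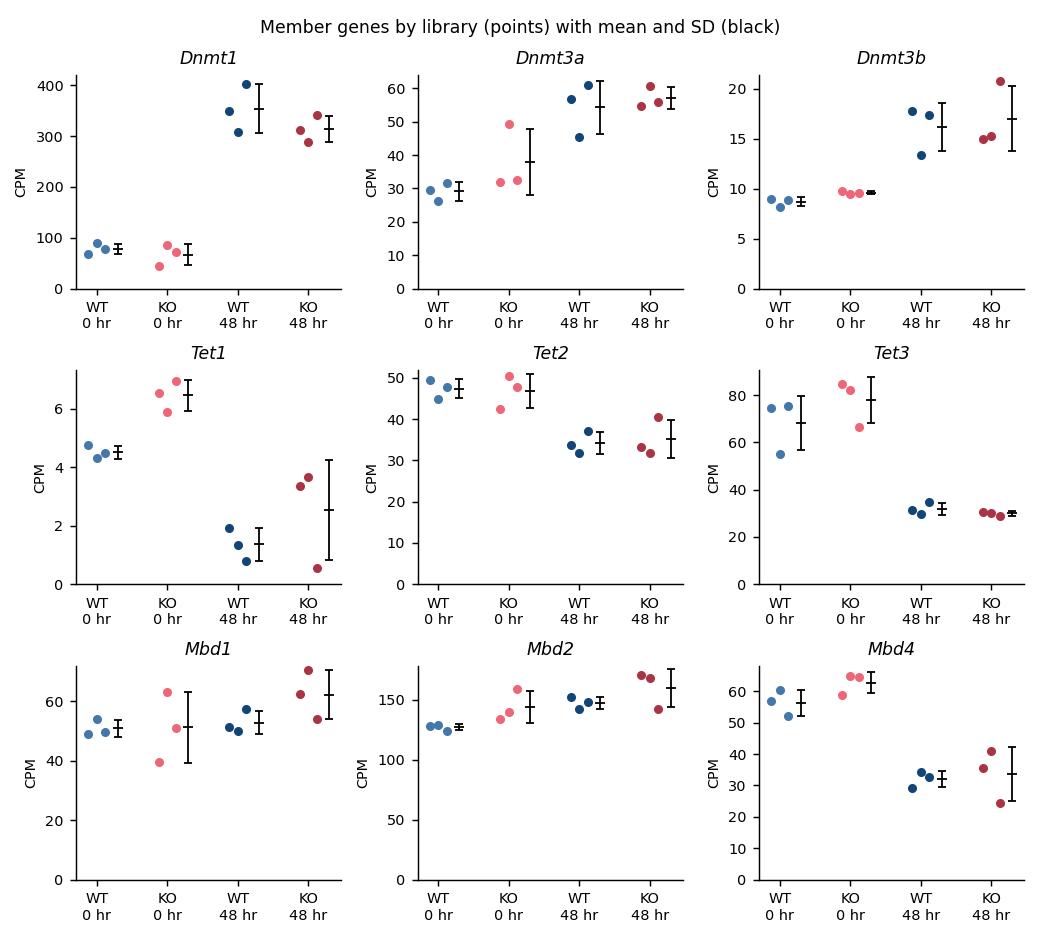
Level of the 9 genes in CPM (vertical axes from 0) in each of the 12 libraries, shown as points by group, with the mean and SD of 3 libraries in black. Dnmt1 is at 43.8 to 89.1 CPM in the 0 hr libraries and at 289 to 403 CPM in the 48 hr libraries, and Tet3 and Mbd4 lie lower at 48 hr than at 0 hr in every library.

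Dnmt1 (chromosome 9, 20907209 to 20959888 in mm10, minus strand) encodes the enzyme that maintains methylation through cell division. Its levels were 68.8, 89.1 and 77.7 CPM in WT 0 hr and 350, 308 and 403 CPM in WT 48 hr. In KO they were 43.8, 85.9 and 71.1 CPM at 0 hr, then 312, 289 and 342 CPM at 48 hr. The lowest 48 hr library was thus far above the highest 0 hr library in both genotypes. Over time its log2 fold change was 2.17 (SE 0.20, edgeR adjusted p = 3.9e-07) in WT and 2.23 (SE 0.20, adjusted p = 3.2e-07) in KO. KO 0 hr replicate 4 held the lowest Dnmt1 level of all libraries.

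Dnmt3a (chromosome 12, 3806007 to 3914443, plus strand) encodes a methyltransferase that can act on unmethylated DNA. It was at 29.4, 26.2 and 31.7 CPM in WT 0 hr and 56.7, 45.4 and 60.9 CPM in WT 48 hr. The KO libraries held 31.9, 49.4 and 32.5 CPM at 0 hr, then 54.8, 60.8 and 55.8 CPM at 48 hr. KO 0 hr replicate 5 was high within its group, yet no 0 hr library of either genotype reached the 48 hr libraries of the same genotype. Dnmt3a rose by 0.90 (SE 0.17, edgeR adjusted p = 0.0003) on the log2 scale in WT and 0.59 (SE 0.17, adjusted p = 0.0062) in KO. Of its exonic bases, 133 are shared with Dnmt3aos on the opposite strand, and the kit does not mark strand, so reads there cannot be told apart.

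Dnmt3b (chromosome 2, 153649450 to 153687730, plus strand) encodes the other such enzyme and had the lowest level of the 3 methyltransferase genes per length. It was at 9.02, 8.16 and 8.87 CPM in WT 0 hr and 17.8, 13.4 and 17.4 CPM in WT 48 hr. Levels in KO were 9.76, 9.47 and 9.56 CPM at 0 hr, then 15, 15.3 and 20.8 CPM at 48 hr. Libraries of the 2 times did not overlap in either genotype. Its log2 fold change was 0.90 (SE 0.17, edgeR adjusted p = 0.0003) in WT and 0.83 (SE 0.17, adjusted p = 0.0006) in KO. Of the 31-base words in its GENCODE transcripts, 13.5% also occur in those of its relative Dnmt3c, which was not analysed here, so part of its reads could come from either gene. For the 8 other genes that share was at most 6.18% over all other genes together (Mbd4).

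Tet1 (chromosome 10, 62804570 to 62908996, minus strand), a dioxygenase with its own CG-binding domain, had the lowest level of the 9 genes per length. It was at 4.76, 4.31 and 4.48 CPM in WT 0 hr and 1.93, 1.35 and 0.793 CPM in WT 48 hr. The KO levels were 6.53, 5.90 and 6.97 CPM at 0 hr, then 3.37, 3.67 and 0.545 CPM at 48 hr, the last being replicate 12 with 21 counts. Every 48 hr library was below every 0 hr library, and the KO 48 hr group was split between a pair of libraries above 3 CPM and 1 below 1 CPM. The log2 fold change was -1.73 (SE 0.50, edgeR adjusted p = 0.007) in WT and -1.35 (SE 0.49, adjusted p = 0.023) in KO. The KO fall lost its call without KO 0 hr replicate 6 (-1.29, adjusted p = 0.0503) and in a fit of the 6 KO libraries alone (-1.39, adjusted p = 0.0569).

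Tet2 (chromosome 3, 133463679 to 133545139, minus strand), a dioxygenase that lacks such a domain, changed least of the 7 called genes. Its level was 49.5, 44.8 and 47.8 CPM in WT 0 hr and 33.8, 31.9 and 37.2 CPM in WT 48 hr. For KO the values were 42.4, 50.4 and 47.8 CPM at 0 hr, then 33.2, 31.8 and 40.4 CPM at 48 hr. KO 48 hr replicate 12 came close to the lowest KO 0 hr library without reaching it. Its log2 fold change was -0.47 (SE 0.12, edgeR adjusted p = 0.0034) in WT and -0.42 (SE 0.12, adjusted p = 0.0073) in KO, against a median over all tested genes of -0.39 and -0.30. Tet2 thus moved about as far as the median gene.

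Tet3 (chromosome 6, 83362373 to 83459084, minus strand) had the highest mean level of the 3 dioxygenase genes at 0 hr per length. It was at 74.4, 55.2 and 75.5 CPM in WT 0 hr and 31.3, 29.7 and 34.8 CPM in WT 48 hr. KO libraries held 84.7, 82.2 and 66.7 CPM at 0 hr, then 30.5, 30.3 and 28.8 CPM at 48 hr. The groups lay well apart, and the KO 48 hr libraries differed by less than 2 CPM. Its log2 fold change was -1.10 (SE 0.14, edgeR adjusted p = 7.4e-06) in WT and -1.38 (SE 0.14, adjusted p = 7.8e-07) in KO.

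Mbd4 (chromosome 6, 115840697 to 115853371, minus strand), the repair glycosylase among the readers, was at 56.9, 60.3 and 52.1 CPM in WT 0 hr and 29.3, 34.2 and 32.6 CPM in WT 48 hr. In KO it was at 58.7, 64.8 and 64.5 CPM at 0 hr, then 35.7, 41.1 and 24.4 CPM at 48 hr. The 48 hr libraries were all below the 0 hr libraries. For Mbd4 the log2 fold change was -0.82 (SE 0.16, edgeR adjusted p = 0.0004) in WT and -0.89 (SE 0.16, adjusted p = 0.0002) in KO. Its exons share 264 bases with Gm44206 and those of Tet2 share 43 bases with Gm42567, both on the opposite strand, so reads in those bases cannot be told apart.

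Mbd2 (chromosome 18, 70568189 to 70626131, plus strand), a methyl-CG reader that can take the place of Mbd3 in the CHD4 complex, had the highest level of the 9 per length. It was at 128, 129 and 124 CPM in WT 0 hr and 152, 142 and 148 CPM in WT 48 hr. Its KO levels were 134, 140 and 159 CPM at 0 hr, then 171, 168 and 142 CPM at 48 hr. The WT groups did not overlap, the KO groups did, and neither difference was called. The log2 fold change was 0.21 (SE 0.10, edgeR adjusted p = 0.072) in WT and 0.15 (SE 0.10, adjusted p = 0.21) in KO. The WT difference was called with DESeq2 (0.31, adjusted p = 0.0033), with relative log expression scaling (0.31, adjusted p = 0.0137) and without KO replicates 6 and 12 (0.22, adjusted p = 0.0438). Without those 2 libraries the KO difference was called too (0.31, adjusted p = 0.0271).

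Mbd1 (chromosome 18, 74267605 to 74282732, plus strand), a reader that binds methylated and, in some isoforms, unmethylated CG sites, was at 48.9, 54.0 and 49.8 CPM in WT 0 hr and 51.3, 49.9 and 57.4 CPM in WT 48 hr. Its levels in KO were 39.5, 63.2 and 51.2 CPM at 0 hr, then 62.4, 70.5 and 54.1 CPM at 48 hr. The groups overlapped in both genotypes. Its log2 fold change was 0.05 (SE 0.15, 95% interval -0.28 to 0.39) in WT and 0.28 (SE 0.15, 95% interval -0.05 to 0.61) in KO, neither called (edgeR adjusted p = 0.76 and 0.12). The KO value was called without KO 0 hr replicate 5 (0.46, adjusted p = 0.0124).

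**Figure D2:**
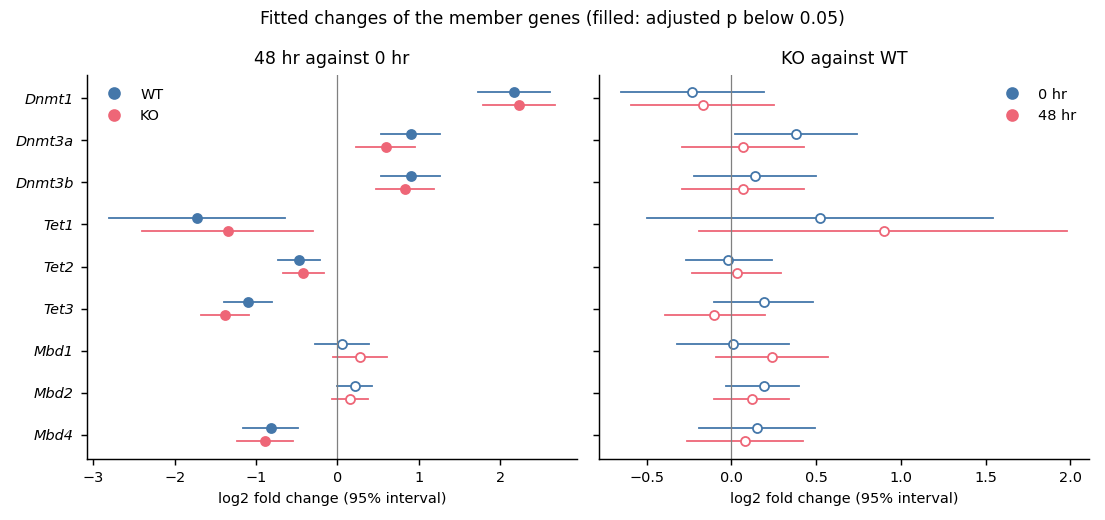
Fitted log2 fold changes (horizontal axes) with 95% intervals from edgeR, over time in each genotype (left) and KO against WT at each time (right), with filled points where the adjusted p was below 0.05. On the left 7 genes are filled in both genotypes, Dnmt1 farthest to the right at 2.17 and 2.23, and on the right no point is filled.

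The direction of part of these changes depended on how libraries were scaled. The CPM levels above, and whether groups overlapped in them, were read under the main scaling only. Dnmt1 rose and Tet1, Tet2, Tet3 and Mbd4 fell over time in both genotypes under all 5 scalings tried. The rises of Dnmt3a and Dnmt3b were not called in either genotype when libraries were scaled by their totals alone or by the upper quartile. In WT both genes then stood at 0.01 and 0.22, and in KO Dnmt3b stood at 0.01 and 0.19 and Dnmt3a at -0.23 and -0.04. Under those scalings Mbd1 and Mbd2 were called lower, with WT values of -0.83 and -0.68 by totals and -0.62 and -0.46 by the upper quartile. The median of all tested genes moved with them, from -0.39 in the main scaling (the trimmed mean of M values, TMM) to -1.28 by totals and -1.06 by the upper quartile in WT. Relative to that median, Dnmt3a and Dnmt3b stood 1.29 higher in WT on the log2 scale, Mbd2 0.60 higher, Mbd1 0.44 higher, Mbd4 0.43 lower and Tet3 0.71 lower.

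**Figure D3:**
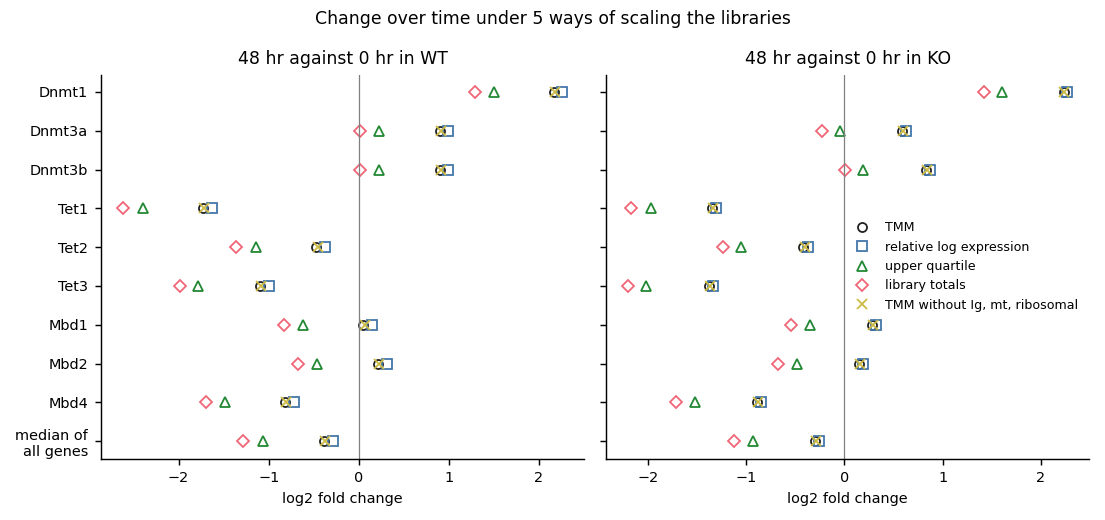
Log2 fold change over time (horizontal axis) of the 9 genes and the median of all tested genes under 5 ways of scaling the libraries, in WT (left) and KO (right). The marks of each gene shift together with the median, and those of Dnmt3a and Dnmt3b lie at or near 0 when libraries are scaled by their totals, while those of Dnmt1 stay above 0 and those of Tet1, Tet2, Tet3 and Mbd4 below it.

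Ratios of counts of 2 genes within a library do not depend on that scaling. Dnmt1 had 0.925, 1.62 and 1.03 counts for each count of Tet3 in WT 0 hr and 11.2, 10.4 and 11.6 in WT 48 hr. In KO this ratio was 0.517, 1.04 and 1.07 at 0 hr and 10.2, 9.56 and 11.9 at 48 hr. Resting cells thus held similar counts of both genes, and activated cells held about 10 counts of Dnmt1 for each of Tet3. The ratio of Dnmt3a to Tet2 went from 0.614 ± 0.0438 to 1.58 ± 0.137 in WT and from 0.804 ± 0.157 to 1.65 ± 0.263 in KO (SD, n = 3). The ratio of Dnmt3b to Tet3 went from 0.129 ± 0.0166 to 0.507 ± 0.0596 in WT and from 0.125 ± 0.0161 to 0.573 ± 0.129 in KO. Among the readers, Mbd2 to Mbd4 went from 2.26 ± 0.125 to 4.62 ± 0.524 in WT and from 2.31 ± 0.155 to 4.89 ± 0.873 in KO. For none of these 4 ratios did the 0 hr and 48 hr libraries of a genotype overlap.

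Levels were ordered between genes only per length, as CPM per kilobase of the mean coding transcript. In WT 0 hr the order began with Mbd2 (78.3 ± 1.52), Mbd1 (18 ± 0.968), Mbd4 (15.6 ± 1.15) and Dnmt1 (14.6 ± 1.89), where Mbd4 and Dnmt1 overlapped between libraries. It went on with Tet3 (6.27 ± 1.05), Tet2 (5.20 ± 0.262), Dnmt3a (3.66 ± 0.35), Dnmt3b (2.13 ± 0.112) and Tet1 (0.318 ± 0.0159), where Tet3 and Tet2 overlapped. In WT 48 hr Dnmt1 was second at 65.7 ± 8.86, behind Mbd2 at 90.8 ± 3.08 and ahead of Mbd1 at 18.6 ± 1.41, with no overlap on either side. Dnmt3a (6.83 ± 1.01) and Dnmt3b (3.97 ± 0.596) then stood above Tet2 (3.77 ± 0.295) and Tet3 (2.93 ± 0.237), although Dnmt3b and Tet2 overlapped. Group means of KO gave the same order as those of WT at both times, with Mbd2 first at 89.1 ± 7.99 at 0 hr and 98.7 ± 9.83 at 48 hr and Tet1 last at 0.456 ± 0.0379 and 0.178 ± 0.122. Between KO libraries Mbd1 overlapped with Mbd4 and with Dnmt1 at 0 hr, and Dnmt3a overlapped with Tet2 and with Tet3. At 48 hr Mbd4 and Dnmt3a overlapped in KO, and so did Dnmt3b and Tet2. With the longest transcript in place of the mean, 3 genes in WT 0 hr and 2 in KO 0 hr took another rank and none did at 48 hr. Mbd1 then went from rank 2 to rank 4 in WT 0 hr and from rank 2 to rank 3 in KO 0 hr.

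Between genotypes none of the 9 genes was called at either time. At 0 hr 0 of 9 passed the adjusted threshold (edgeR), where 1.11% of all tested genes did. By an unadjusted p below 0.05, as for 10.7% of all tested genes, 1 member was picked out, Dnmt3a, whose log2 fold change of KO against WT was 0.38 (SE 0.17, 95% interval 0.02 to 0.74, adjusted p = 0.42). Leaving out single libraries moved that value between 0.15 and 0.49, and DESeq2 did not call it. The KO libraries were all above the WT libraries for Dnmt3a, Dnmt3b, Tet1 and Mbd2, and for no gene were they all below. Over all tested genes 14.9% had groups that did not overlap, 7.02% with KO higher.

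The fitted differences at 0 hr ran from -0.23 (Dnmt1) to 0.52 (Tet1). For the 8 genes other than Tet1, the 95% intervals spanned ratios of KO to WT from 0.64 to 1.67. That of Tet1 was wider, from 0.71 to 2.90, on 218 to 474 counts per library. Tet2 and Mbd1 lay nearest to no difference, at -0.02 (95% interval -0.27 to 0.24) and 0.01 (-0.32 to 0.34).

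At 48 hr 0 of 9 genes passed the adjusted threshold, where 2.02% of all tested genes did, and DESeq2 likewise called none of them (0). By an unadjusted p below 0.05 the count was also 0, against 14.4% of all tested genes. No gene had groups that did not overlap, where 20.2% of all tested genes did. The largest fitted difference was that of Tet1, 0.90 (SE 0.50, 95% interval -0.19 to 1.98, edgeR adjusted p = 0.46). Without KO 48 hr replicate 12, Tet1 stood at 1.37 (adjusted p = 0.0199), and without KO 0 hr replicate 6 as well at 1.37 (adjusted p = 0.0193), so 1 library decided that call. Intervals of the 8 other genes spanned ratios of KO to WT from 0.66 (Dnmt1) to 1.48 (Mbd1).

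The difference between genotypes in the change over time was tested as an interaction. Here 0 of 9 genes passed the adjusted threshold (edgeR), where 0.115% of all tested genes did, and DESeq2 passed 0 as well. By an unadjusted p below 0.05 the count was 0 too, against 8.61% of all tested genes. The values ran from -0.31 (Dnmt3a, 95% interval -0.82 to 0.20) to 0.38 (Tet1, 95% interval -1.10 to 1.86). For Dnmt1 the difference was 0.06, with an interval of -0.53 to 0.65.

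Transcripts of these genes were also tested one by one, since Salmon splits reads among them. They were fitted under the main scaling only, and their rises and falls under the other scalings were not computed. The share of a transcript in its gene's counts does not depend on scaling. Of 43 listed transcripts 37 had any count and 36 were tested. Over time 7 were called higher and 9 lower in WT, and 8 higher and 9 lower in KO, where 24.7% and 27.8% of all 36629 tested transcripts in WT, and 23.8% and 26.0% in KO, were called higher and lower. Between genotypes 0 of the 36 were called at 0 hr and 0 at 48 hr, where 0.227% and 0.341% of all transcripts were. By an unadjusted p below 0.05 there were 4 at 0 hr and 2 at 48 hr, against 7.63% and 9.97% of all transcripts. In the interaction 0 were called against 0.00819% of all transcripts, and 3 had an unadjusted p below 0.05 against 6.84%.

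Dnmt3a showed transcripts that moved in opposite directions under the main scaling. The transcript uc007mxa.2, listed as variant 3, held 24.1%, 24.8% and 22.9% of the gene's counts in WT 0 hr and 5.72%, 5.42% and 5.04% in WT 48 hr. In KO its share was 24.6%, 13.1% and 14.4% at 0 hr and 4.45%, 5.30% and 5.39% at 48 hr. Shares at 48 hr were close together and well below every share at 0 hr. On its own scaled counts uc007mxa.2 fell over time by 1.21 (SE 0.24, edgeR adjusted p = 0.0016) in WT and by 1.12 (SE 0.24, adjusted p = 0.0026) in KO on the log2 scale. The transcript uc007mxb.1, listed as variant 1, rose by 1.13 (SE 0.16, adjusted p = 0.00017) and 0.93 (SE 0.16, adjusted p = 0.00069) and held 81.6% ± 13.8 of the counts in WT 48 hr. Another transcript, uc007mxc.1, is also listed as variant 3 and took from 0.0% to 27.4% of the counts in single libraries without a pattern by group. Its highest share was in WT 48 hr replicate 9, so the fall of uc007mxa.2 does not hold for all of variant 3 in every library.

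Dnmt3b also had a transcript whose share grew. The transcript uc008nij.3, listed as variant 9, held 9.92%, 8.23% and 6.14% of the counts in WT 0 hr and 51.3%, 46.0% and 62.4% in WT 48 hr. In KO it held 48.2%, 20.0% and 22.3% at 0 hr and 45.7%, 58.5% and 77.8% at 48 hr, so the KO groups overlapped in share while the WT groups did not. It rose over time by 3.66 (SE 0.46, edgeR adjusted p = 7.1e-05) in WT and 1.89 (SE 0.42, adjusted p = 0.0038) in KO. At 0 hr all KO libraries held more of it than all WT libraries, a log2 fold change of 2.04 (SE 0.44) that was not called (adjusted p = 0.13). The difference in its change over time was -1.78 (SE 0.59, adjusted p = 0.62). In WT the share of uc008nie.3, listed as variant 3, was 49.7% ± 8.96 at 0 hr and 17.9% ± 12.8 at 48 hr.

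**Figure D4:**
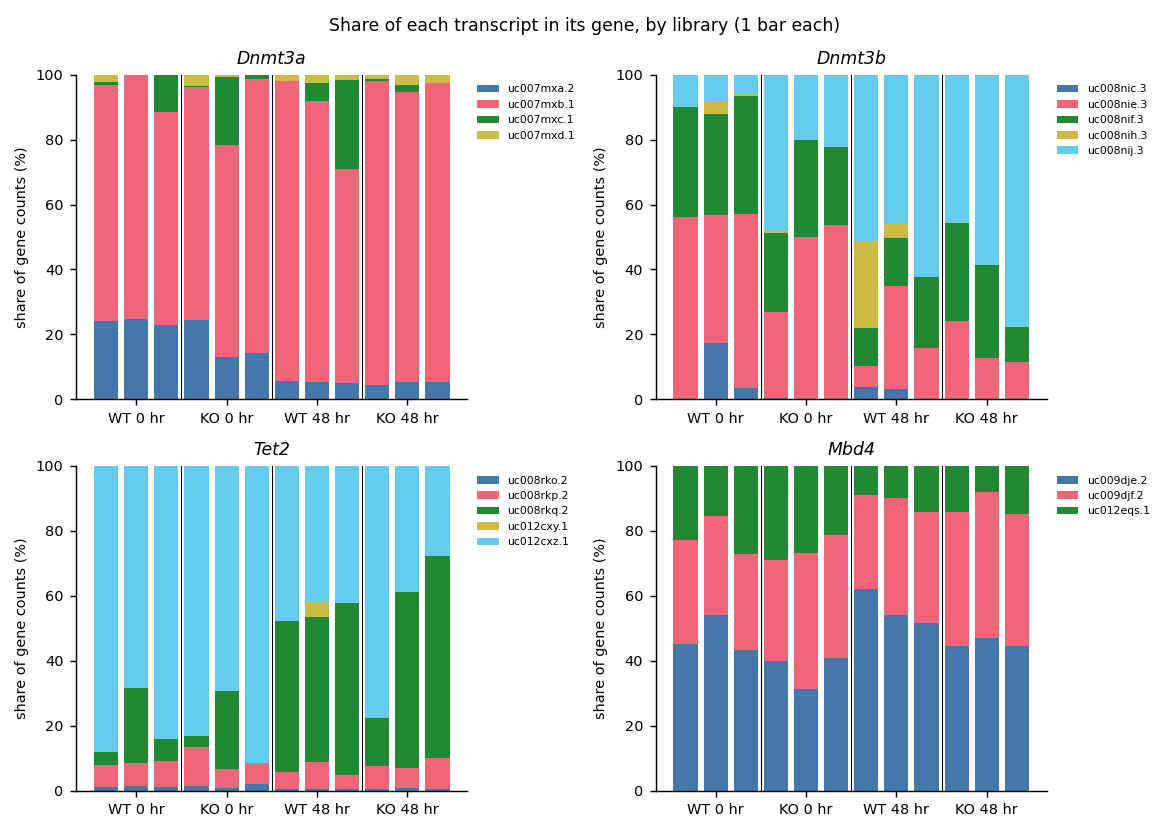
Share of each transcript in the counts of its gene (vertical axis, %), 1 bar per library and 3 per group, for Dnmt3a, Dnmt3b, Tet2 and Mbd4. Dnmt3a transcript uc007mxa.2 shrinks from 22.9% to 24.8% of the bar in WT 0 hr to about 5% at 48 hr, and Dnmt3b transcript uc008nij.3 grows from 6.14% to 9.92% in WT 0 hr to 46.0% to 62.4% in WT 48 hr.

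For Tet2, transcript uc012cxz.1 held 87.9%, 68.5% and 84.0% of the counts in WT 0 hr and 47.7%, 41.9% and 42.2% in WT 48 hr. In KO its share was 83.2%, 69.3% and 91.6% at 0 hr and 77.6%, 38.9% and 27.6% at 48 hr, where replicate 10 remained within the 0 hr range. It fell by 1.30 (SE 0.28, edgeR adjusted p = 0.0031) in WT and by 1.20 (SE 0.28, adjusted p = 0.0049) in KO. Mbd4 transcript uc012eqs.1 fell by 1.74 (SE 0.26, adjusted p = 0.00027) in WT and by 2.01 (SE 0.27, adjusted p = 0.0001) in KO, and its share in WT went from 21.7% ± 5.91 to 11.0% ± 2.83. Mbd1, which was not called as a gene under the main scaling, had a transcript that was. There uc008fpj.2 rose by 0.68 (SE 0.17, edgeR adjusted p = 0.0067) in WT and 0.96 (SE 0.17, adjusted p = 0.00087) in KO. Summed as a gene, Mbd1 stood at -0.83 by totals and -0.62 by the upper quartile in WT, and this transcript was not fitted under those scalings. The share of uc008fpj.2 in Mbd1 counts in WT went from 31.7% ± 1.65 to 47.6% ± 5.91.

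Some splits were uneven between replicates. Dnmt1 transcript uc009ojs.2 had 74, 345 and 1320 counts in the 3 WT 0 hr libraries. Tet1 transcript uc007fje.2 had 1, 172 and 173 counts there and 0, 0 and 2 in KO 0 hr. Both Dnmt1 transcripts that held the most counts rose in WT, uc009ojq.2 by 2.14 (SE 0.30, edgeR adjusted p = 0.00015) and uc009ojp.2 by 3.04 (SE 0.41, adjusted p = 0.00011). Tet3 transcripts uc033isr.1 and uc009cnl.1 fell together in KO, by 1.51 (SE 0.16, adjusted p = 1.7e-05) and by 1.24 (SE 0.21, adjusted p = 0.00054). Mbd2 had 99.3% ± 0.235 of its WT 0 hr counts in uc008fon.2.

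The partners of these enzymes were followed in a list of 46 further genes of DNA methylation, of which 45 were tested and Zfp57 was not. Under the main scaling 25 rose and 12 fell over time in WT, and 24 rose and 12 fell in KO, against the 73.9% and 70.7% of all genes called. By direction, 33.0% of all tested genes were called higher in each genotype, and 40.9% in WT and 37.7% in KO lower. The same shares are the background of each set below, also counted by direction under the main scaling alone. The median log2 fold change of the list was 0.55 in WT and 0.80 in KO, where the median of all tested genes was -0.39 and -0.30. Of 11 genes for maintenance, recruitment and methyl donors, 10 rose in WT and 9 in KO and none fell. Of 16 genes for removal of the mark and for Tet cofactors, 8 rose and 5 fell in WT, and 9 rose and 5 fell in KO. Of 14 other readers of methylated or bare CG sites, 4 rose and 7 fell in each genotype. Of the 4 tested partners of silencing, 3 rose in WT and 2 in KO.

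**Figure D5:**
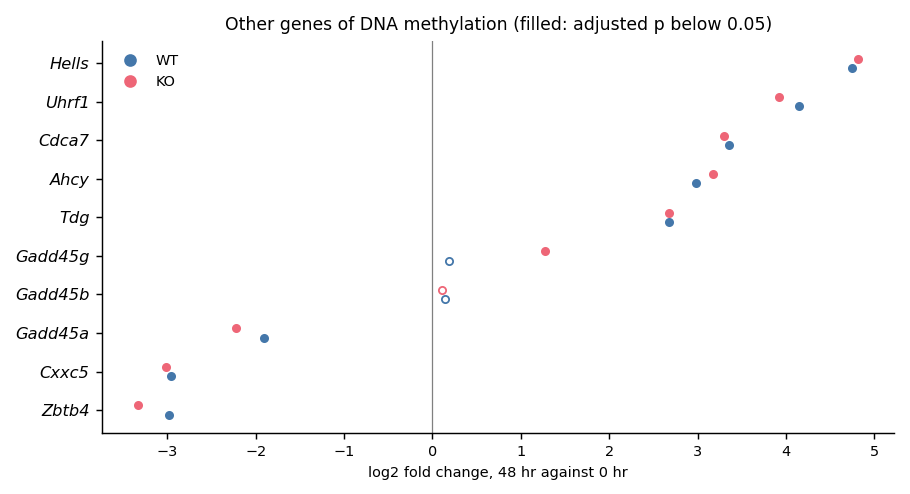
Log2 fold change over time (horizontal axis) of 10 further genes of DNA methylation in WT and KO, ordered by the WT value and filled where the edgeR adjusted p was below 0.05. Hells and Uhrf1 are at the top at 4.75 and 4.15 in WT, and Cxxc5 and Zbtb4 are at the bottom at -2.96 and -2.98.

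Partners of Dnmt1 rose as well. Uhrf1, which brings Dnmt1 to newly replicated DNA, was at 19.5, 26.6 and 21.7 CPM in WT 0 hr and 396, 377 and 435 CPM in WT 48 hr. In KO Uhrf1 was at 20.0, 28.1 and 22.5 CPM at 0 hr, then 350, 338 and 382 CPM at 48 hr. Its log2 fold change was 4.15 (SE 0.16, edgeR adjusted p = 8.1e-11) in WT and 3.92 (SE 0.16, adjusted p = 1.1e-10) in KO. Counts of Dnmt1 per count of Uhrf1 went from 3.48 ± 0.116 to 0.876 ± 0.0555 in WT and from 2.80 ± 0.53 to 0.880 ± 0.0224 in KO, with no overlap between times. Other genes hold 24.2% of the 31-base words of Uhrf1 transcripts, most of them in Gm5648, so part of its reads could come from elsewhere. Hells, a remodeller needed for methylation of packed DNA, rose by 4.75 (SE 0.16, adjusted p = 4.8e-11) in WT and 4.82 (SE 0.16, adjusted p = 4.1e-11) in KO. Its partner Cdca7 rose by 3.36 (SE 0.13) and 3.30 (SE 0.13).

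These rises came with those of replication and division genes. Pcna, the sliding clamp to which Dnmt1 binds, went from 68.3 ± 9.33 to 1050 ± 102 CPM in WT and from 71.9 ± 11.2 to 875 ± 40.9 CPM in KO. Mcm2, of the replicative helicase, went from 64.0 ± 21.3 to 501 ± 24.0 CPM in WT, and Mki67 from 28.5 ± 2.41 to 221 ± 29.1 CPM. Counts of Dnmt1 per count of Pcna went from 1.15 ± 0.116 to 0.342 ± 0.0792 in WT and from 0.977 ± 0.456 to 0.36 ± 0.0311 in KO. All 8 myeloid markers and all 4 platelet markers fell over time in both genotypes, where 40.9% (WT) and 37.7% (KO) of all tested genes did. The myeloid sum went from 124 to 242 CPM in WT 0 hr to 15.7 to 16.7 CPM in WT 48 hr. Of 8 T cell markers 7 fell in WT and 6 in KO. In each genotype 3 of 6 B cell markers fell and 1 rose, and 2 of 4 dendritic markers fell and 1 rose. The dendritic sum went from 40.4 to 62.3 CPM in WT 0 hr to 91.7 to 97.7 CPM in WT 48 hr. In KO it was 35.3 to 76.7 CPM at 0 hr and 58.8 to 74.5 CPM at 48 hr. The part of dividing cells and of other cell types in the changes of the 9 genes was not tested.

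Genes that act with or after the dioxygenases moved in both directions. Tdg, which excises oxidised methylcytosine, went from 37.6 ± 2.48 to 241 ± 9.15 CPM in WT and from 40.4 ± 5.88 to 258 ± 9.78 CPM in KO, a log2 fold change of 2.68 (SE 0.12) in each (edgeR adjusted p = 2e-10 and 2.1e-10). Other genes hold 48.0% of the 31-base words of Tdg transcripts, mostly its pseudogene Tdg-ps, so its level is uncertain. Gadd45a, an adaptor linked to removal of the mark, fell by 1.91 (SE 0.25) in WT and by 2.22 (SE 0.25) in KO. Cxxc5, a CG-binding protein that interacts with Tet2, went from 71.8 ± 2.01 to 9.20 ± 0.761 CPM in WT and from 105 ± 9.28 to 13.0 ± 3.91 CPM in KO, changes of -2.96 (SE 0.19) and -3.01 (SE 0.19). Gadd45b was not called over time (0.14 in WT and 0.11 in KO), and was called lower under totals and upper-quartile scaling.

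Among the readers outside the 9 genes, Zbtb4, a zinc finger protein that binds methylated CG sites, fell by 2.98 (SE 0.22, edgeR adjusted p = 3.5e-08) in WT and by 3.33 (SE 0.22, adjusted p = 1.2e-08) in KO.

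Between genotypes, 2 of the 45 partner genes were lower in KO at 0 hr, 1 was lower at 48 hr, and none was higher, where 1.11% and 2.02% of all genes were called. Ahcy, which clears S-adenosylhomocysteine, the product that inhibits methyltransferases, was at 22.9, 30.6 and 20.6 CPM in WT 0 hr and 5.45, 7.73 and 10.2 CPM in KO 0 hr. At 48 hr Ahcy was at 204, 191 and 190 CPM in WT and 68.7, 68.4 and 73.3 CPM in KO. Every KO library was below every WT library of its time. The log2 fold change was -1.66 (SE 0.19, edgeR adjusted p = 0.00054) at 0 hr and -1.48 (SE 0.19, adjusted p = 0.001) at 48 hr. Ahcy rose over time in both genotypes, by 2.98 (SE 0.20) in WT and 3.17 (SE 0.20) in KO, and the difference in its rise was 0.18 (SE 0.26, adjusted p = 0.90).

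The Ahcy value is uncertain, because a copy of the gene on another chromosome, Gm4737, is counted separately. Of the 31-base words in the GENCODE transcripts of Ahcy, 68.7% also occurred in those of Gm4737, so reads can be split between them. Gm4737, chosen after its values were seen, was at 1.86, 1.28 and 1.11 CPM in WT 0 hr and 13.5, 14.1 and 15.1 CPM in KO 0 hr. At 48 hr Gm4737 was at 13.2, 6.62 and 8.44 CPM in WT and 124, 127 and 128 CPM in KO. It was thus higher in KO at both times, by 3.32 (SE 0.24, edgeR adjusted p = 6.4e-06) and 3.75 (SE 0.23, adjusted p = 5.1e-07) on the log2 scale, the opposite of Ahcy. Summed over both genes, the level was 26.1 ± 5.23 CPM in WT and 22.0 ± 3.18 CPM in KO at 0 hr, and 205 ± 11.1 CPM in WT and 197 ± 4.59 CPM in KO at 48 hr (SD, n = 3). In the sum the genotypes overlapped at both times, unlike for Ahcy alone.

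Gadd45g, of the same adaptor family as Gadd45a, was at 49.5, 35.5 and 51.5 CPM in WT 0 hr and 22.3, 14.0 and 20.9 CPM in KO 0 hr. Its groups did not overlap, and its log2 fold change was -1.25 (SE 0.20, edgeR adjusted p = 0.0079), not called without WT 0 hr replicate 3 (-1.16, adjusted p = 0.0501). Calls of other partners depended on KO 0 hr replicate 6 or KO 48 hr replicate 12. Gadd45a stood at 0.57 (adjusted p = 0.40) at 0 hr, and without KO 0 hr replicate 6 it was called higher in KO (0.84, adjusted p = 0.031). Cxxc5 stood at 0.54 (adjusted p = 0.21) at 0 hr, with all KO libraries above all WT libraries, and at 0.50 (adjusted p = 0.20) at 48 hr. Without KO 48 hr replicate 12 it was called at 0 hr with nearly the same value (0.55, adjusted p = 0.0198) and at 48 hr with a larger one (0.73, adjusted p = 0.00378).

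In the interaction 0 of the 45 partner genes were called by edgeR or by DESeq2, where 0.115% of all genes were called by edgeR. By an unadjusted p below 0.05 there were 4 of 45 (edgeR), against 8.61% of all tested genes. The difference in change over time was 1.08 (SE 0.28, edgeR adjusted p = 0.25) for Gadd45g. Between genotypes no marker of T cells, myeloid cells, dendritic cells, erythroid cells or platelets was called at either time, and 1 of 6 NK cell markers was higher in KO at 48 hr. Summed erythroid markers ranged from 122 to 1580 CPM in KO 0 hr and from 275 to 393 CPM in WT 0 hr. Plasma cell markers summed to 551 to 887 CPM in KO 0 hr against 411 to 550 CPM in WT 0 hr, with 1 of 5 called higher, and to 769 to 985 CPM in KO 48 hr against 651 to 665 CPM in WT 48 hr, with 2 called higher. Their part in these differences was not tested.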

How the data were processed

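Estimated counts per transcript were deposited by the authors as whole numbers for 12 libraries. Per the labels' protocols, cDNA was amplified with a SMART-Seq kit, which does not mark strand, and sequenced from both ends. Per the submitters' processing notes, bcl2fastq 2.20.0.422, Trimmomatic 0.36, Salmon 0.8.2, DESeq2 1.14.1 and the mm10 build were used. Salmon shares reads among similar transcripts, so the split between transcripts is an estimate.

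The 63759 transcripts were summed to 32699 gene names, after spaces were trimmed from 344 names. Genes were filtered with filterByExpr (19125 left) and scaled by TMM (factors 0.723 to 1.42). edgeR 4.0.16 (R 4.3.3) fitted all libraries as 4 groups (robust quasi-likelihood F test, 8 residual degrees of freedom, common dispersion 0.0534). The Benjamini-Hochberg adjustment ran over the whole table, and calls were made below 0.05. Transcripts were fitted likewise (36629 tested). The procedure was run on simulated data in which few genes changed. Most genes were called over time here, so that run cannot check the scaling of the time comparisons. Levels per length used the mean length of GENCODE M21 coding transcripts with a RefSeq match, because the table's transcript names have no lengths there. The weighting by counts that had been set first was therefore not used. Positions are from the same annotation.

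Named genes were the 9 genes, partner genes called between genotypes, 9 standing partners (a pair of them not reported here), the 2 largest rises and falls among partners over time in WT, transcripts with 10% or more of their gene's counts, and the 3 genes of most similar pattern. Members and lists were chosen with earlier results of these data known. Alternatives were DESeq2 1.42.0, limma-voom (limma 3.58.1), 4 other scalings, no filter, 1 CPM in 3 libraries, non-robust dispersion, separate fits of 6 libraries and leaving out each library. Leaving out KO replicates 6 and 12 together, the search for 31-base words shared with other genes (both strands) and the sum of Ahcy and Gm4737 were chosen after seeing the data. Figures were drawn with matplotlib 3.10.9.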

Additional observations from a re-analysis of the deposited data

How the results depend on the processing

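For the 9 genes, 1001 of 1026 values under the alternatives kept their side of the threshold, 8 lost a call, 7 gained one and 10 were called in 1 of the fits compared and turned direction. Of the 1001, 40 that were called in neither fit changed sign, to values between -0.17 and 0.13. Scaling by totals and by the upper quartile gave the turned values over time. These were -0.83 and -0.62 for Mbd1 and -0.68 and -0.46 for Mbd2 in WT, and -0.23 and -0.04 for Dnmt3a, -0.54 and -0.35 for Mbd1 and -0.67 and -0.48 for Mbd2 in KO. Among partner genes they were -0.75 and -0.54 for Gadd45b and -0.71 and -0.49 for Gadd45g in WT, and -0.70 and -0.53 for Gadd45b in KO. The all-gene median moves by construction in those scalings.

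The number of all genes called between genotypes at 0 hr (212) was 645 with DESeq2, 75 in a separate fit, 674 without KO replicates 6 and 12, and 79 to 426 without single libraries. At 48 hr (386) it was 1069 with DESeq2, 193 with limma-voom, 1351 without replicates 6 and 12, and 136 to 1080 without single libraries. In the interaction (22) it was 220 with DESeq2, 136 (without replicates 6 and 12) and 3 to 90. For partner genes at 0 hr (2) it was 5 without replicates 6 and 12 and 1 to 4 without single libraries. At 48 hr (1) it was 2 with DESeq2 and in a separate fit, 3 without replicates 6 and 12, and 1 to 2 without single libraries. In the interaction (0) it was 1 without replicates 6 and 12 and 0 to 1 without single libraries. Of the 9 genes at 48 hr (0), 1 was called without replicates 6 and 12, and 0 to 1 without single libraries. The cause was not tested.

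No paired analysis was possible because the groups share no replicate numbers. Depth limits Tet1 most, with 21 to 474 counts per library, and 3 libraries a group limit every comparison between genotypes.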

Other observations

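Genes with the most similar pattern to each of the 9 were found by the root mean square difference of log2(CPM + 0.5), centred on each gene's mean over the 12 libraries, among about 10089 genes with a mean of at least 5 CPM. The libraries share depth and scaling, so these are descriptions of pattern with no test. Nearest to Dnmt1 were Polr1b (0.116), Mybbp1a (0.143) and Ttc37 (0.149). Polr1b, a subunit of RNA polymerase I, was at 32.7 CPM in WT 0 hr, 28.4 in KO 0 hr, 130 in WT 48 hr and 119 in KO 48 hr.

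For Dnmt3a the nearest genes were Slc6a6 (0.112), Traf4 (0.12) and Sik3 (0.133), and for Dnmt3b they were Srsf4 (0.114), Wdr26 (0.121) and Eefsec (0.122). Slc6a6 carries taurine and was at 47.8 CPM in WT 0 hr, 66.2 in KO 0 hr, 92.6 in WT 48 hr and 102 in KO 48 hr. The root mean square spread of each of the 2 methyltransferase genes on this scale was 0.435.

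Tet1 had the farthest neighbours of the 9, Nlrc4 (0.30), Slc16a7 (0.324) and Frat2 (0.341), beside its own spread of 0.917. Nearest to Tet2 were Ilvbl (0.0843), Arhgap30 (0.0896) and Golga4 (0.0905), with a spread of 0.243, and nearest to Tet3 were Zfc3h1 (0.114), Vamp2 (0.121) and Hdac7 (0.122), with a spread of 0.629. Hdac7, a histone deacetylase of lymphocytes, was at 70.7 CPM in WT 0 hr, 72.0 in KO 0 hr, 33.5 in WT 48 hr and 29.7 in KO 48 hr.

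Nearest to Mbd4 were Cers4 (0.118), Ifngr1 (0.137) and Gpd2 (0.14), with a spread of 0.467. For Mbd1 they were Fam178a (0.0895), Cdc14a (0.0913) and Sin3a (0.0929), with a spread of 0.205, and for Mbd2 they were Scamp4 (0.0825), Rev1 (0.084) and Acot8 (0.088), with a spread of 0.144. Ifngr1, a receptor chain for interferon gamma, was at 136 CPM in WT 0 hr and 142 in KO 0 hr, and at 69.6 and 70.8 CPM at 48 hr.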
